A study of Mus musculus with 4 samples.

Results

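The cells described here are Pdgfra-expressing progenitors of mouse gonadal fat with few transcripts of the genes that mark 3 programmes, by which most progenitors of these libraries can be sorted: an interstitial one with Pi16 and Dpp4, a preadipocyte one with Fgf10, and an inflammatory one with Il6 and Ptx3. The name rests on UMI limits for 7 genes, and other genes of the same programmes were present. A barcode was kept when it had more than 1000 and fewer than 7000 detected genes and under 8% mitochondrial transcripts. Members were chosen by measured transcript counts alone: a barcode was taken when it held at least 2 UMIs (molecular tags, counted once per captured transcript) of Pdgfra, at most 1 of Ptprc, at most 2 of Upk3b and Msln together, at most 4 of Cxcl13 and fewer than 10 of Mzb1. It further had at most 2 UMIs of Pi16 and Dpp4, at most 1 of Fgf10, Enpp6 and Mrap, and at most 4 of Il6 and Ptx3. These limits left 1039 cells of 14982 kept barcodes, and 1039 of the 3610 barcodes that met the first 5 limits. The remaining 2571 barcodes, which exceeded at least 1 programme limit, are called the other progenitors.

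White fat holds a stroma of mesenchymal progenitors that are recognised by the receptor Pdgfra and by the small proteoglycans decorin (Dcn) and lumican (Lum). Part of them can turn into adipocytes, and all of them lay down matrix. Cells with Pi16 and Dpp4 lie in the interstitium and are regarded as early progenitors, cells with Fgf10 and Lpl are committed preadipocytes, and cells with Il6 and Ptx3 make inflammatory mediators. p16, a product of the Cdkn2a locus, blocks the kinases that drive the cell cycle and is a standard marker of senescent cells.

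All cells came from the stromal vascular fraction of gonadal fat of 18-month-old male mice that carried p16-CreERT2 together with a tdTomato reporter behind a loxP-flanked stop, and that were given tamoxifen. Cre under the p16 promoter thus switched tdTomato on in cells that used the promoter at the time of tamoxifen, and in their progeny, so Tom+ records past and not present promoter use. Cells with and without tdTomato (Tom) were parted further by CD45, which sits on blood cells, and each combination gave 1 library. The 4 libraries share genotype, age and treatment, there was no group without the transgenes or tamoxifen, and the number of pooled animals per library was not given in the sources used here.

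With 1 library per group no difference between groups could be tested. Strings of 4 values give the CD45- pair first and then the CD45+ pair, each with Tom+ before Tom-. All intervals are exact 95% intervals (Clopper-Pearson for shares, Poisson for levels, conditional for ratios) that cover counting error only. The members had medians of 19924, 16356, 20474.5 and 17774 UMIs per cell. The CD45 labels did not separate blood cells from stroma: Ptprc, which encodes CD45, stood at 171 to 230 CPM (a gene's UMIs in relation to all UMIs summed over the cells, scaled to 1000000) in the other kept barcodes of all 4 libraries. The 2 Tom- libraries had 4394 barcodes in common. No barcode was a member in more than 1 library, but 21, 129, 10 and 70 members had a barcode that also occurred in another library, with medians of 574.5 to 661 UMIs there. A doublet caller marked 1, 9, 0 and 5 members.

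Members made up 110 of 4145 kept barcodes in CD45- Tom+ (2.65%, 2.19 to 3.19), 442 of 4038 in CD45- Tom- (10.9%, 10.0 to 11.9), 72 of 1981 in CD45+ Tom+ (3.63%, 2.85 to 4.56) and 415 of 4818 in CD45+ Tom- (8.61%, 7.84 to 9.44). Among progenitors the order was the opposite one. The members were 41.2% (35.2 to 47.4) and 57.6% (48.4 to 66.4) of the progenitors in the 2 Tom+ libraries, against 28.4% (26.2 to 30.7) and 25% (22.9 to 27.1) in the 2 Tom- libraries. Members were shallower than the other progenitors, whose medians were 25232, 24377, 27076 and 26032 UMIs, and a shallow cell stays under a UMI limit more easily. The part of depth in these shares was not tested.

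The limits that define the members were crossed by many cells with 1 UMI more or less. In CD45- Tom-, 131 members held exactly 1 UMI of Fgf10, Enpp6 and Mrap, and 58 progenitors that met every other limit held 2. At the Pi16 and Dpp4 limit of the same library 54 members held 2 UMIs and 15 barcodes held 3, and at the Il6 and Ptx3 limit 27 members held 4 and 19 barcodes held 5. At the Pdgfra limit 31 members held 2 UMIs and 35 barcodes that met every other limit held 1. A total of 53, 114, 29 and 118 members held no UMI of any of the 7 programme genes.

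The members were selected on the following values, which are given as a description. Pdgfra (chromosome 5, 75152292 to 75198215 on the plus strand of GRCm38) stood at 348, 532, 379 and 534 CPM in the members. Il6 was at 11.5, 28.2, 13.2 and 26.7 CPM, against 554, 632, 489 and 594 CPM in the other progenitors. Pi16 was at 4.92, 12.2, 6.02 and 11.4 CPM, against 129, 208, 98.6 and 204 CPM. The programme genes were thus low and not at 0.

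Dcn and Lum, which the rule did not use, were high in most members. Dcn stood at 9498, 15132, 10880 and 15506 CPM in the members, against 1622, 8871, 1421 and 8442 CPM in all kept barcodes that were no members. Lum stood at 1854, 2466, 1990 and 2714 CPM, against 215, 1171, 196 and 1157 CPM. Dcn alone does not part progenitors from the mesothelium, the sheet that covers the fat pad: the 1285 kept barcodes that exceeded the rule's limit for Upk3b and Msln held 13331 CPM of Dcn, within the range of the members, and 334 CPM of Lum. The level was lower in both Tom+ libraries for Pdgfra, Dcn and Lum alike. tdTomato stood at 832 and 848 CPM in the members of the Tom+ libraries and at 9.64 and 13.2 CPM in those of the Tom- libraries, and other kept barcodes of the Tom- libraries held 16.8 and 20.1 CPM.

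Not all members carried these markers. A split chosen after seeing the data, at 20 UMIs of Dcn and Lum together, put 17, 9, 12 and 2 members below it, 40 cells in all. Of these, 23 expressed secreted proteins of the epididymal epithelium, the lining of the sperm duct that lies against gonadal fat in males. They comprised 13 cells of CD45- Tom+ and 10 of CD45+ Tom+, and none of either Tom- library. Each held between 689 and 13448 UMIs of Gpx5 (an epididymal glutathione peroxidase), Lcn8 (a lipocalin), Defb20 (a beta-defensin) and Cst11 (a cystatin) together, and at most 3 UMIs of Dcn and Lum. The members with at least 20 Dcn and Lum UMIs held at most 7, 1, 4 and 1 UMIs of the same 4 genes in any cell.

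These 23 cells were members because they held Pdgfra, with medians of 8 UMIs in CD45- Tom+ and 6 in CD45+ Tom+ and a highest value of 17. They were deep, with medians of 43397 and 30344 UMIs, and 12 of the 13 and 9 of the 10 held a tdTomato UMI. Among all kept barcodes 16, 0, 12 and 0 reached 100 UMIs of the 4 genes, so most barcodes of this kind fell inside the rule. The other 17 members below the split were a mixture. By ratio to the members above the split, the first 3 genes were Cyp26b1, Acta2 and Tagln in CD45- Tom- (9 cells), followed among others by Myh11 and Rgs5 of contractile mural cells. In CD45- Tom+ (4 cells) they were Cyp26b1, Trdc and Adgrf5, so that genes of mural, endothelial and lymphoid cells stood side by side. Immunoglobulin genes, Jchain and the mast cell protease Cpa3 were among the first in CD45+ Tom+ (2 cells), and Lyz2, Usp53 and Arhgap45 were the first in CD45+ Tom- (2 cells). By the split itself all 40 cells below it were low in Dcn and Lum, so these genes do not bear out the name progenitor for them. The cut is in UMIs, so a shallow cell falls under it more easily, and the part of depth was not tested. The remaining 999 cells (93, 433, 60 and 413) are called the Dcn/Lum members.

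**Figure D1:**
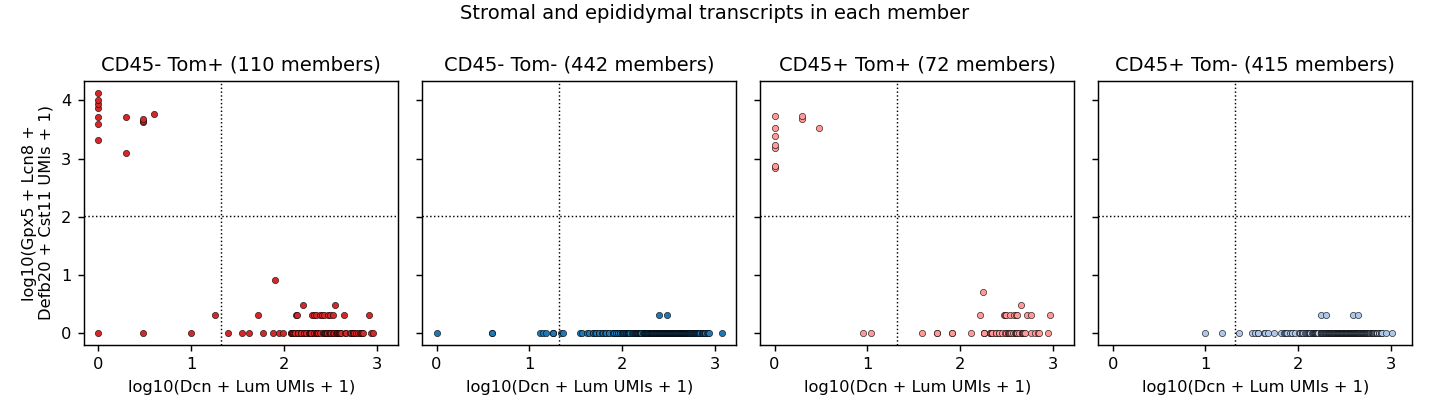
Each point is 1 of the 1039 members, with its UMIs of Dcn and Lum together on the horizontal axis and its UMIs of Gpx5, Lcn8, Defb20 and Cst11 together on the vertical axis, both on log scales, by library. The 23 members with at least 100 UMIs of the 4 genes all lie at 3 or fewer Dcn and Lum UMIs, and all come from the 2 Tom+ libraries.

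Markers of other cell types were read for 14 lists. Several lists moved with the Tom label, plasma cell genes most: Mzb1, Jchain, Xbp1 and Sdc1 summed to 1752, 376, 1375 and 340 CPM in the members and to 14792, 1120, 15804 and 1357 CPM in the kept barcodes. All immunoglobulin genes together took 21455, 1754, 16462 and 1429 CPM of the members' transcripts. Far lower, but also higher in both Tom+ libraries, were the sums of the B cell list (12.3, 6.98, 20.5 and 6.33 CPM), the mast cell list (34.8, 14.7, 39.7 and 9.04 CPM), the endothelial list (41.4, 17.3, 49.3 and 5.55 CPM) and the lymphatic endothelial list (20.5, 4.82, 12.6 and 5.04 CPM). The T cell list (2.87, 4.19, 2.41 and 5.55 CPM), the neutrophil list (4.92, 13.6, 2.41 and 11.5 CPM) and the pericyte and smooth muscle list (44.7, 82.7, 31.3 and 50.9 CPM) were lower in both. The part of such RNA in the differences between Tom+ and Tom- members was not tested. The macrophage list (6 genes) summed to between 132 and 177 CPM, where kept barcodes held 2291 to 3574 CPM. The mesothelial list (Upk3b, Msln, Krt19 and Wt1) summed to 246, 213, 266 and 163 CPM in the members, so it too was higher in both Tom+ libraries. Of this list, Wt1 stood at 155 to 254 CPM in the members, while Upk3b and Msln, which the rule limits, stayed under 7 CPM.

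Against the other progenitors of the same library, few genes were higher in the members of all 4 libraries. The rule was made on this contrast, so the values below are a description. Of 2666 genes whose mean reached 50 CPM in every library, 6 (0.225%) were past 1.5-fold higher in all 4 and 38 (1.43%) were past 1.5-fold lower in all 4. The 6 were Clu, Chchd10, Rsrp1, Saa3, Inmt and Enpp2. Clu, a secreted chaperone, was at 922, 239, 666 and 193 CPM in the members and at 166, 51.3, 138 and 41.7 CPM in the other progenitors. Chchd10, a protein of the mitochondrial intermembrane space, had log2 ratios of 1.28 to 1.58.

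Part of these 6 rested on subsets of the members. Without the 40 cells of low Dcn and Lum and without the group of cells led by Clu that is described below, the log2 ratio of Clu to the other progenitors was −3.67, −0.74, −1.50 and −0.90, and that of Saa3, an acute phase apolipoprotein, lay between −3.27 and −1.10. Chchd10 (2.18, 1.68, 2.07 and 1.39), Inmt, an indolethylamine methyltransferase (1.76, 1.36, 1.65 and 1.31), and Rsrp1, an arginine- and serine-rich protein (1.11, 0.94, 0.53 and 0.99), were higher with and without them. Enpp2 was mixed without them, at −0.84, −0.14, 0.62 and −0.14. The losses for Clu and Saa3 are by construction, since the cells rich in them were taken out of the members alone. The other progenitors kept all their cells.

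Among the lower genes Has1, a hyaluronan synthase, was at 118 and 189 CPM in the members of the 2 CD45- libraries and at 610 and 584 CPM in the other progenitors, and its log2 ratio over the 4 libraries ran from −2.37 to −1.62. Ugdh, which makes the sugar that Has1 uses, was lower by log2 values of −1.79 and −1.09 in the CD45- libraries. Others among the 15 lowest were Cxcl1 (−1.48 and −1.35 in the same libraries), a neutrophil chemokine, Ptgs2 (−1.24 and −1.30), the inducible cyclooxygenase, Tnfaip6 (−1.34 and −1.13), which modifies hyaluronan, and Vcan (−1.37 and −0.89), a proteoglycan that binds it.

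By list, and beside the 0.225% higher and 1.43% lower over all tested genes, 8 of 21 tested genes of the inflammatory progenitor list were past 1.5-fold lower in all 4 libraries (Il6, Ptx3, Cxcl1, Ccl7, Has1, Tnfaip3, Tnfaip6 and Il33) and 1, Saa3, was higher. Il6 and Ptx3 are genes of the rule. Of the interstitial progenitor list 4 of 9 were lower (Pi16, Anxa3, Fbn1 and Ly6c1) and of the preadipocyte list 3 of 15 (Col4a2, Col15a1 and Cxcl14). Of the collagen list 3 of 16 were lower, and of 32 matrix glycoproteins 2, Fbn1 and Vcan. No tested gene of the lists for TGF-beta (21), complement (9), immediate early genes (24), nuclear oxidative phosphorylation (45) or MHC class I (12) was past 1.5-fold in all 4 libraries, in either direction, which at these background shares says little about lists of that size. The median log2 ratio over all tested genes was −0.09, −0.00, −0.04 and −0.01.

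The members were not alike. A clustering of the 999 Dcn/Lum members, added after seeing the data and made without immunoglobulin and mitochondrial genes, gave 6 groups, each called here after one of its leading genes. Since the same genes made the groups, their values describe the groups and test nothing, and the groups are given no cell type names. The Vegfd group held 348 cells (22, 159, 14 and 153 by library), the Lpl group 213 (23, 79, 10 and 101), the Col1a1 group 180 (9, 88, 10 and 73), the Has1 group 121 (10, 51, 7 and 53), the Clu group 110 (25, 41, 19 and 25) and the Apod group 27 (4, 15, 0 and 8).

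The Vegfd group was marked by secreted vascular factors. Vegfd, a growth factor for lymphatic vessels, was at 1096 CPM against 312 CPM in the other Dcn/Lum members. Adm (adrenomedullin) was at 1114 against 372 CPM, and Agt (angiotensinogen) at 172 against 52 CPM. Inmt was at 697 against 231 CPM.

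The Lpl group carried genes of lipid uptake, although by the rule its cells held at most 1 UMI of Fgf10, Enpp6 and Mrap together. Other genes of the preadipocyte list, such as Lpl, Col4a1 and Sparcl1, were among its leading genes. Lpl, which frees fatty acids from lipoproteins, was at 4485 against 1593 CPM, Fabp4, a fatty acid carrier, at 1797 against 531 CPM and Cd36, a fatty acid transporter, at 156 against 46 CPM. Pparg, the master regulator of adipogenesis, was at 42 CPM in this group and at 3 to 23 CPM in the other groups.

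The Col1a1 group held the matrix makers. Col1a1 was at 12045 against 3207 CPM, Postn (periostin) at 1936 against 399 CPM, Cthrc1 at 75 against 8 CPM and Aspn (asporin) at 258 against 48 CPM. The Has1 group had Has1 at 511 against 139 CPM, the metal-binding Mt2 at 1236 against 412 CPM and Nr4a3, an immediate early nuclear receptor, at 503 against 151 CPM. The Apod group, 27 cells with a median of 7536 UMIs, had Apod (a lipocalin) at 2294 against 71 CPM, Penk (proenkephalin) at 777 against 93 CPM and Gdf10, a TGF-beta family ligand, at 920 against 115 CPM.

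The Clu group stood furthest from the rest. Clu (chromosome 14, 65968483 to 65981547, plus strand) was at 2199 CPM, against 26.7 CPM in the other Dcn/Lum members. Saa3 was at 5339 against 149 CPM, the signalling ligand Wnt4 (chromosome 4, 137277489 to 137299726, plus strand) at 681 against 21.4 CPM, Gatm, which makes the precursor of creatine, at 508 against 6.05 CPM, and the adhesion molecule Ncam1 at 298 against 20.7 CPM. Wt1, a transcription factor of the coelomic lining and of visceral fat progenitors, was at 510 against 142 CPM. Genes of the other groups were low here, with Svep1 at 56 CPM and Vegfd at 82 CPM.

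**Figure D2:**
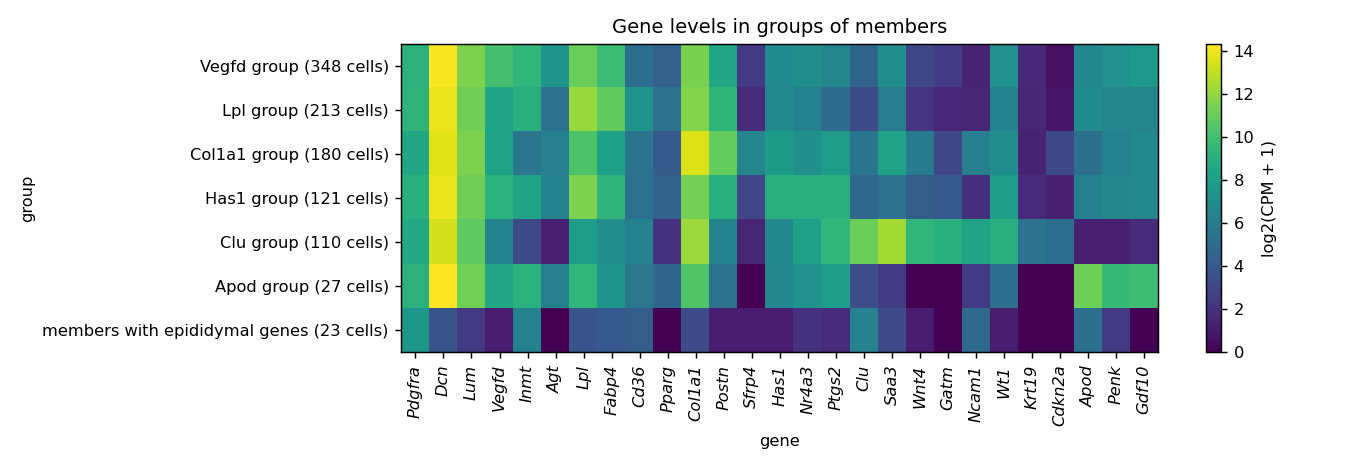
Levels of named genes (horizontal axis) in the 6 groups of the 999 Dcn/Lum members and in the 23 members with epididymal genes (vertical axis), as a colour scale of log2(CPM + 1) of the summed counts of each group. The groups share Pdgfra, Dcn and Lum, and Clu, Saa3, Wnt4, Gatm and Ncam1 are brightest in the row of the Clu group.

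Several genes of the Clu group are known from the mesothelium, so the group was set beside the 1285 kept barcodes above the Upk3b and Msln limit (155, 525, 77 and 528 by library). Wt1 (510 and 496 CPM), Ptgis (1031 and 1088 CPM), which makes prostacyclin, Aldh1a2 (229 and 204 CPM), a retinoic acid synthase, and Myrf (212 and 294 CPM) were at close levels in both. Clu, Saa3 and Wnt4 were at 1372, 3409 and 348 CPM in those barcodes.

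Other markers of the sheet were far lower in the Clu group. Krt19, a simple epithelial keratin, was at 42.8 CPM against 509 CPM, Gpm6a at 44.5 against 374 CPM and Slpi at 555 against 2910 CPM. Upk3b was at 14.5 against 761 CPM and Msln at 5.66 against 431 CPM, both held down by the rule. In turn Lum was at 1718 against 334 CPM, Col1a1 at 4652 against 1713 CPM, Ncam1 at 298 against 39.7 CPM, Gatm at 508 against 121 CPM and Pdgfra, a gene of the rule, at 411 against 224 CPM. Dcn was at 10349 against 13331 CPM. Of the 110 cells, 31 held a Krt19 UMI.

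Cdkn2a (ENSMUSG00000044303, chromosome 4, 89274471 to 89294653, minus strand), the gene whose promoter drives the Cre, was scarce in the members as a whole: 28, 45, 19 and 51 UMIs, or 11.5, 5.71, 11.4 and 6.58 CPM. Other kept barcodes held 6.5, 7.3, 7.0 and 7.6 CPM. The log2 ratio of Tom+ to Tom- was 1.01 (0.27 to 1.72) in the CD45- pair and 0.80 (−0.05 to 1.58) in the CD45+ pair. When each cell was thinned to 5000 UMIs, a Cdkn2a UMI was left in 3 of 107 members (2.80%, 0.582 to 7.98), 12 of 417 (2.88%, 1.496 to 4.973), 1 of 71 (1.41%, 0.0357 to 7.60) and 4 of 404 (0.990%, 0.270 to 2.52), too few to give a direction. The log2 ratio also turned to −0.065 in the CD45- pair when members had to hold 0 UMIs of the programme genes, and to −0.016 in the CD45+ pair under looser quality limits (500 genes and 20% mitochondrial transcripts). No difference between Tom+ and Tom- members as a whole could thus be read from Cdkn2a.

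Cdkn2a lay mostly in the Clu group of members. Of the 142 Cdkn2a UMIs of the Dcn/Lum members, 100 (70.4%) lay in the 110 cells of the Clu group and 33 (23.2%) in the Col1a1 group. The Vegfd group, with 348 cells, held 3, the Lpl group 3, the Has1 group 3 and the Apod group 0. In the Clu group the level was 37.0 CPM (24.4 to 53.9), 24.4 CPM (15.5 to 36.6), 25.4 CPM (13.5 to 43.4) and 57.4 CPM (40.4 to 79.1) in the 4 libraries.

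Thus the Tom- libraries held Cdkn2a in this group as the Tom+ libraries did. The CD45+ Tom- value rested on 1 cell with 26 UMIs of 37. In CD45- Tom+, CD45- Tom- and CD45+ Tom+ the top cells held 12 of 27, 9 of 23 and 6 of 13 UMIs. Without the top cell of each library the levels were 21.9, 15.5, 14.7 and 18.6 CPM, the last with an interval of 9.28 to 33.3. A Cdkn2a UMI was found in 28 of 110 cells of the Clu group (25.5%, 17.6 to 34.6; median depth 24790 UMIs) and in 28 of 889 other Dcn/Lum members (3.15%, 2.10 to 4.52; median depth 16906 UMIs). Thinned to 5000 UMIs the shares were 10.3% (5.24 to 17.7) and 1.04% (0.478 to 1.97). In the barcodes above the Upk3b and Msln limit Cdkn2a was at 8.06 CPM when pooled over libraries. By library it was at 17.0 CPM (13.6 to 21.1), 5.92 CPM (4.79 to 7.23), 20.1 CPM (14.7 to 26.8) and 5.83 CPM (4.72 to 7.12). Both Tom+ libraries thus lay above both Tom- libraries there, and in CD45+ Tom+ the interval overlapped that of the Clu group.

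**Figure D3:**
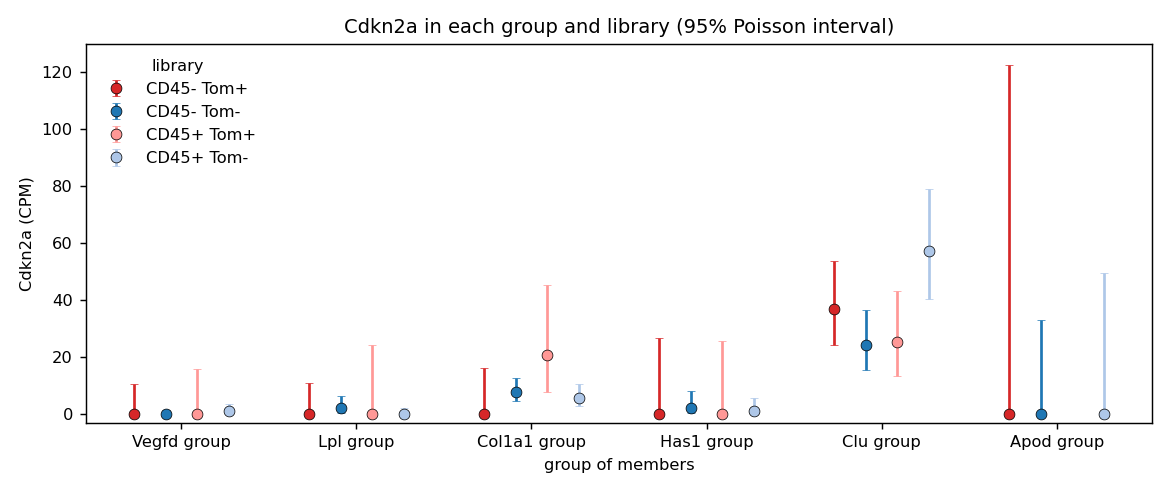
Cdkn2a level in CPM (vertical axis) in each group of Dcn/Lum members by library, with exact Poisson 95% intervals for counting error. The Clu group lies between 24.4 and 57.4 CPM in all 4 libraries. The Col1a1 group runs from 0 to 20.9 CPM, and the Vegfd, Lpl and Has1 groups lie at or under 2.28 CPM.

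A simpler split, by the presence of a Wnt4 UMI, gives the same description again. It was chosen after seeing the data, Wnt4 is a leading gene of the Clu group and 102 of its 110 cells hold a Wnt4 UMI, so it is no separate evidence. Cells with a Wnt4 UMI are also deeper (median 22854.5 against 16387 UMIs). The 230 Dcn/Lum members with a Wnt4 UMI held 107 Cdkn2a UMIs, or 19.1 CPM (15.7 to 23.1), and the 769 without held 35, or 2.67 CPM (1.86 to 3.72). The level was 31.1, 11.7, 21.1 and 21.2 CPM with Wnt4 and 0, 3.52, 8.41 and 1.56 CPM without it. Without the cell with 26 UMIs, the level with Wnt4 was 8.28 CPM in CD45+ Tom- and 14.6 CPM over all libraries. Wt1, which took no part in the split, was at 352 CPM with Wnt4 and at 132 CPM without.

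tdTomato transcript, by which the sort chose the cells, was found in 25 of 25, 4 of 41, 17 of 19 and 8 of 25 cells of the Clu group. In the other Dcn/Lum members it was found in 58 of 68 (85.3%, 74.6 to 92.7), 60 of 392 (15.3%, 11.9 to 19.3), 28 of 41 (68.3%, 51.9 to 81.9) and 68 of 388 (17.5%, 13.9 to 21.7), so a share of the Tom- cells held it too. In the Vegfd group of the Tom+ libraries, with tdTomato in 18 of 22 and 8 of 14 cells, Cdkn2a had 0 UMIs, which allows levels of up to 10.7 and 15.8 CPM (upper 95% limits).

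The study set Tom+ against Tom- cells to see what progenitors with p16 promoter activity express. Taken over all members, Tom+ and Tom- libraries differed in many genes. In the CD45- pair 172 of 2974 genes that averaged 50 CPM or more (5.78%) were past 1.5-fold higher in Tom+ and 446 (15%) past 1.5-fold lower. In the CD45+ pair the numbers were 195 of 3057 (6.38%) and 337 (11%). Both pairs called 116 of 2884 genes (4.02%) higher and 243 (8.43%) lower.

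The highest of them were the genes of the 23 cells described above. Gpx5 was at 13948 CPM in the members of CD45- Tom+ and at 0.127 CPM, a single UMI, in those of CD45- Tom-, with 7117 and 0.258 CPM in the CD45+ pair. Defb20 was at 9423 and 5142 CPM in the Tom+ libraries, and its single UMI in the Tom- libraries was in CD45+ Tom-. Lcn8, Spag11b, Defb48, Lcn9, Cst12, Cst11, Defb47, Cst8, Adam7 and Ly6g5b completed the 12 highest. For 73 of the 116 genes higher in both pairs, more than 50% of the Tom+ members' UMIs came from these 23 cells, which held 22.1% of all Tom+ members' UMIs.

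Leaving out these and the other cells of low Dcn and Lum also moved the ratios of other genes. Pdgfra, a gene of the rule, had log2 ratios of −0.61 and −0.50 over all members (CD45- and CD45+ pair) and of −0.41 and −0.33 over the Dcn/Lum members, and Lum of −0.41 and −0.45 over all members and 0.01 and −0.13 over the Dcn/Lum members, in part by construction, since the split used Lum and 29 of the 40 cells it took out were Tom+. Gene lists moved alike. Over all members the median log2 ratio of the progenitor identity list was −0.68 and −0.50, of the matrix glycoproteins −0.78 and −0.63, and of the complement list −1.16 and −0.84, while all tested genes had medians of −0.10 and −0.01. Over the Dcn/Lum members these medians were −0.35 and −0.25, −0.36 and −0.32, and −0.75 and −0.52, beside −0.02 and 0.01 for all genes.

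Among the Dcn/Lum members 95 of 2991 genes (3.18%) were past 1.5-fold higher and 148 (4.95%) lower in Tom+ in the CD45- pair, and 131 of 3020 (4.34%) and 148 (4.9%) in the CD45+ pair. Both pairs called 53 of 2875 genes (1.84%) higher and 56 (1.95%) lower. Of the 116 genes higher over all members 27 were among these 53, and of the 243 lower 51 were among these 56.

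The higher genes were mostly those of the Clu group. Ncam1 was at 192 CPM in CD45- Tom+ and 31.5 CPM in CD45- Tom-, a log2 ratio of 2.61 (2.37 to 2.85), and at 241 and 33.6 CPM in the CD45+ pair, a log2 ratio of 2.84 (2.60 to 3.08). Wnt4 was at 357 and 83.0 CPM (2.10, 1.94 to 2.26) and at 337 and 68.0 CPM (2.31, 2.12 to 2.49). Clu was at 1224 and 241 CPM (2.35, 2.26 to 2.44) and at 803 and 192 CPM (2.06, 1.95 to 2.17). Both Tom+ libraries lay above both Tom- libraries for each of these 3 genes.

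The remaining genes of the 12 highest were Serpinb6b, a serpin, Aldh1a2, Tagln and Acta2, which belong to the contractile apparatus, Nov, a matricellular protein, Plxna4, a semaphorin receptor, Sec11c, a signal peptidase subunit, Igfbp5, a binding protein of insulin-like growth factors, and Cryab, a small heat shock protein. For Wnt4, Clu and Ncam1 the shares of cells, too, were higher in both Tom+ libraries than in both Tom- libraries. After thinning of all members to 5000 UMIs, Wnt4 was found in 25.2%, 13.4%, 28.2% and 11.4% of cells, Clu in 29.9%, 16.5%, 35.2% and 14.9%, and Ncam1 in 19.6%, 6.24%, 22.5% and 4.70%. The shares did not differ so for every gene. Igfbp5 was found in 21 of 93 and 100 of 433 Dcn/Lum members of the CD45- pair, and Cryab in 45 of 60 and 313 of 413 of the CD45+ pair. For 43 of the 53 genes, more than 50% of the Tom+ UMIs lay in the 44 Tom+ cells of the Clu group, which held 39.6% of the Tom+ UMIs of the Dcn/Lum members.

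Single cells weighed on some of them. A single cell of CD45+ Tom+ held 323 of 484 Tagln UMIs (66.7%) and a single cell 194 of 331 Acta2 UMIs (58.6%). Without the top cell of each library Tagln was at 146, 49.7, 125 and 47.7 CPM, so both Tom+ libraries stayed above both Tom- libraries. For Igfbp5 the top cell of CD45- Tom+ held 50.3% of the UMIs. Over all called genes, when the top cell of each library was left out gene by gene, an alternative added after seeing the data, 38 of the 53 higher genes and 56 of the 56 lower genes stayed past 1.5-fold in both pairs. The 15 that did not were Des, Nr4a2, S100a4, Gbp2, Smim1, Cxcl2, Cav1, Bhlhe40, Timp3, Nxn, Ccl2, Ctla2a, Serf1, Odc1 and Fndc1. Ncam1, Wnt4 and Clu were spread more widely, with at most 18.1% of the UMIs of a Tom+ library in its top cell.

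All 56 lower genes were at a lower level in the Clu group than in the other Dcn/Lum members, and 52 of the 53 higher genes at a higher one. These counts are in part fixed by make-up, since the Clu group was 26.9%, 9.47%, 31.7% and 6.05% of the Dcn/Lum members. The same share over all tested genes is not given here, so the counts describe the called genes and test nothing. Svep1, a large matrix adhesion protein, was at 503 and 1010 CPM in the CD45- pair, a log2 ratio of −1.01 (−1.11 to −0.91), and at 565 and 1063 CPM in the CD45+ pair, a log2 ratio of −0.91 (−1.02 to −0.80). Clec3b (tetranectin) was at 563 and 1206 CPM (−1.10) and at 684 and 1175 CPM (−0.78). Ntrk2, a neurotrophin receptor, was at 63.8 and 140 CPM (−1.13) and at 58.6 and 155 CPM (−1.40).

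Hp, which encodes haptoglobin, had log2 ratios of −1.76 and −1.22. Gdf10, Adh1, Lrrc17, Slfn5, Dtx4, Col14a1, Pla1a and Hmcn2 were the others of the 12 lowest. Both Tom+ libraries lay below both Tom- libraries for each gene given here with its levels.

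By role, the complement list had medians of −0.75 and −0.52 among the Dcn/Lum members, with C4b lower in both pairs (980 and 1644 CPM, and 1113 and 1813 CPM) and 5 of 9 tested genes lower in the CD45- pair and 3 of 10 in the CD45+ pair. Of 34 matrix glycoproteins 10 were lower and 2 higher in the CD45- pair and 4 lower and 2 higher in the CD45+ pair, with Tnxb, Sparcl1 and Lama2 lower in both. Among growth factor ligands and receptors (17 tested in both pairs) Vegfd, Cxcl12, a chemokine that holds blood progenitors, and Lifr were lower in both and none was higher in both. Of 14 genes of the retinoid and lipid list Aldh1a2 and Ptgis were higher in both, and of 19 inflammatory genes the chemokines Cxcl2, Cxcl10 and Ccl2 were. Without the top cell of each library Cxcl2 was at 58.8 and 47.7 CPM and at 70.0 and 52.6 CPM, and Ccl2 at 458 and 306 CPM and at 373 and 286 CPM, so both genes fell under 1.5-fold in both pairs. Of the adipogenesis-regulatory list F3, Gdf10 and Cygb were lower in both, 3 of 7. Over all tested genes 4.95% were lower in the CD45- pair, 4.9% in the CD45+ pair and 1.95% in both. Higher were 3.18%, 4.34% and 1.84%. Without the Clu group no gene named here as lower in both pairs stayed past 1.5-fold lower in both.

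The median log2 ratio of the TGF-beta list was −0.12 and −0.05, near that of all genes. Of 22 genes tested in both pairs 2, Acta2 and Tagln, were higher in both and 2, the binding proteins Ltbp1 and Fst, were lower in both. In the senescence list (15 tested in each pair) 1 gene, Igfbp5, was higher in both, and the medians were 0.07 and 0.03. Cdkn1a, which encodes the kinase inhibitor p21, had log2 ratios of 0.33 and 0.52, under the 1.5-fold line. Nuclear oxidative phosphorylation (45 genes) had medians of 0.24 and 0.01 with no gene past 1.5-fold, and no gene of the cell cycle list reached 50 CPM.

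**Figure D4:**
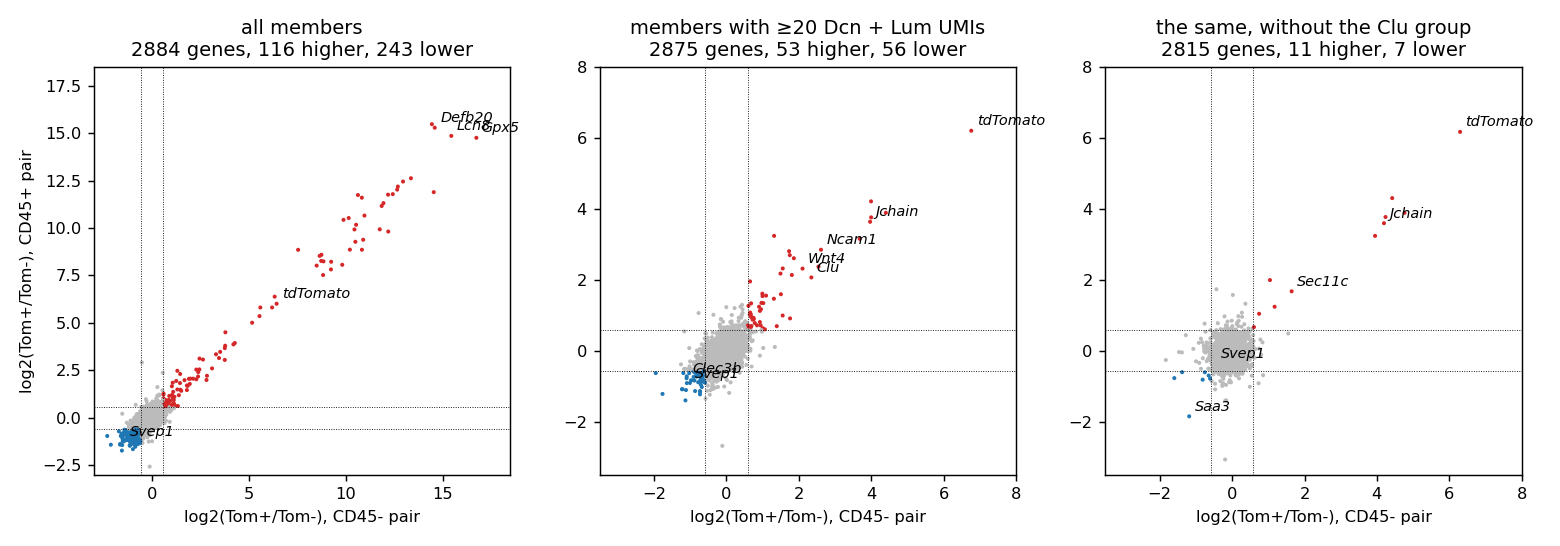
Log2 ratio of Tom+ to Tom- for each tested gene in the CD45- pair (horizontal axis) and the CD45+ pair (vertical axis), for all members, the Dcn/Lum members and the Dcn/Lum members without the Clu group, with lines at 1.5-fold. Genes past the lines in both pairs number 116 higher and 243 lower in the first, 53 and 56 in the second, and 11 and 7 in the third.

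Without the Clu group, 889 cells (68, 392, 41 and 388), most of these differences fell under 1.5-fold, by construction for the genes that define the group. Then 35 of 2921 genes (1.2%) were higher and 58 (1.99%) lower in the CD45- pair, and 61 of 3002 (2.03%) and 65 (2.17%) in the CD45+ pair. Both pairs called 11 of 2815 genes (0.391%) higher and 7 (0.249%) lower. Of the 53 genes higher with the Clu group 10 were among the 11, and of the 56 lower 3 were among the 7. Svep1 had log2 ratios of −0.46 and −0.35, Vegfd of −0.19 and −0.33 and Clec3b of −0.55 and −0.22.

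The 11 higher genes held tdTomato itself, the immunoglobulin genes Igkc, Ighm, Igkv14-126 and Iglv1, the joining chain Jchain and the predicted gene Gm26802. The other 4 were Sec11c, Cd74 (the invariant chain of MHC class II), Trp53inp1, a stress protein that p53 induces, and Chchd10. Sec11c was at 117 and 37.5 CPM in the CD45- pair, a log2 ratio of 1.64 (1.33 to 1.96), and at 126 and 39.6 CPM in the CD45+ pair, 1.67. Trp53inp1 was at 77.3 and 46.1 CPM and at 79.5 and 38.8 CPM. Chchd10 was at 165 and 109 CPM and at 138 and 87.4 CPM, log2 ratios of 0.60 and 0.66, just past the line. Without the top cell of each library these were 0.32 and 0.51, and the other 10 genes stayed past 1.5-fold.

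Plasma cell RNA moved with these genes. In all other kept barcodes Jchain was at 13160, 797, 14284 and 976 CPM, Sec11c at 720, 124, 760 and 156 CPM and Trp53inp1 at 268, 62.0, 293 and 68.5 CPM, higher in both Tom+ libraries as in the members. Jchain reached 1918 and 988 CPM in the Tom+ cells of the set without the Clu group, against 105 and 82.2 CPM in the Tom- cells. The part of RNA from plasma cells in the ratios of Sec11c, Cd74 and Trp53inp1 was not tested.

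The 7 lower genes were Saa3, Timp1, an inhibitor of matrix proteases, Hp, Birc3, an inhibitor of apoptosis, the collagen Col6a5, the chemokine Cxcl14 and Dtx4, a ubiquitin ligase. Saa3 was at 69.9 and 159 CPM in the CD45- pair (−1.19, −1.54 to −0.85) and at 45.2 and 163 CPM in the CD45+ pair (−1.85, −2.37 to −1.38). Timp1 was at 124 and 323 CPM (−1.38) and at 153 and 233 CPM (−0.61). Within the Clu group too Saa3 was lower in Tom+, at 3651 against 7623 CPM and at 2865 against 5873 CPM, although it was higher over all Dcn/Lum members, at 1519 and 1059 CPM and at 1131 and 639 CPM.

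The Clu group itself differed between Tom+ and Tom- cells, in 25 against 41 and 19 against 25 cells. Ncam1 was at 437 and 132 CPM in the CD45- pair and at 546 and 188 CPM in the CD45+ pair. Col1a1 was at 7389 and 2679 CPM and at 5944 and 3414 CPM, and Mmp2, a gelatinase, at 517 and 130 CPM and at 472 and 164 CPM. Krt19 went the other way, at 12.3 and 82.7 CPM and at 25.4 and 32.6 CPM, as did Slpi, at 225 and 635 CPM and at 330 and 990 CPM. Both Tom+ libraries thus lay above both Tom- libraries for Ncam1, Col1a1 and Mmp2, and below them for Krt19, Slpi and Saa3. Krt19 in the CD45+ pair rested on few cells, and without the top cells it was at 16.8 and 18.3 CPM. The barcodes above the Upk3b and Msln limit shared the directions of Ncam1, Col1a1, Krt19 and Slpi. There Ncam1 was at 91.9 and 26.7 CPM and at 110 and 27.0 CPM, and Col1a1 at 2072 and 1640 CPM and at 2493 and 1569 CPM. Krt19 was at 347 and 542 CPM and at 377 and 543 CPM, and Slpi at 1699 and 2832 CPM and at 2167 and 3446 CPM. Saa3 was mixed, at 3717 and 2910 CPM and at 3163 and 3840 CPM.

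Markers of other cell types moved within the Clu group as well. Kdr, an endothelial receptor, was at 86.4 and 13.8 CPM in the CD45- pair and at 135 and 23.3 CPM in the CD45+ pair. Jchain was at 1020 and 59.4 CPM and at 962 and 45.0 CPM, while Lyz2, a macrophage lysozyme, was lower in Tom+, at 80.9 and 123 CPM and at 76.1 and 147 CPM. Without the top cell of each library Lyz2 was at 78.5 and 78.9 CPM and at 49.5 and 92.5 CPM. It was then level in the CD45- pair, while Kdr and Jchain stayed higher in Tom+ in both pairs. The part of these markers of other cell types in the differences within the Clu group was not tested.

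**Figure D5:**
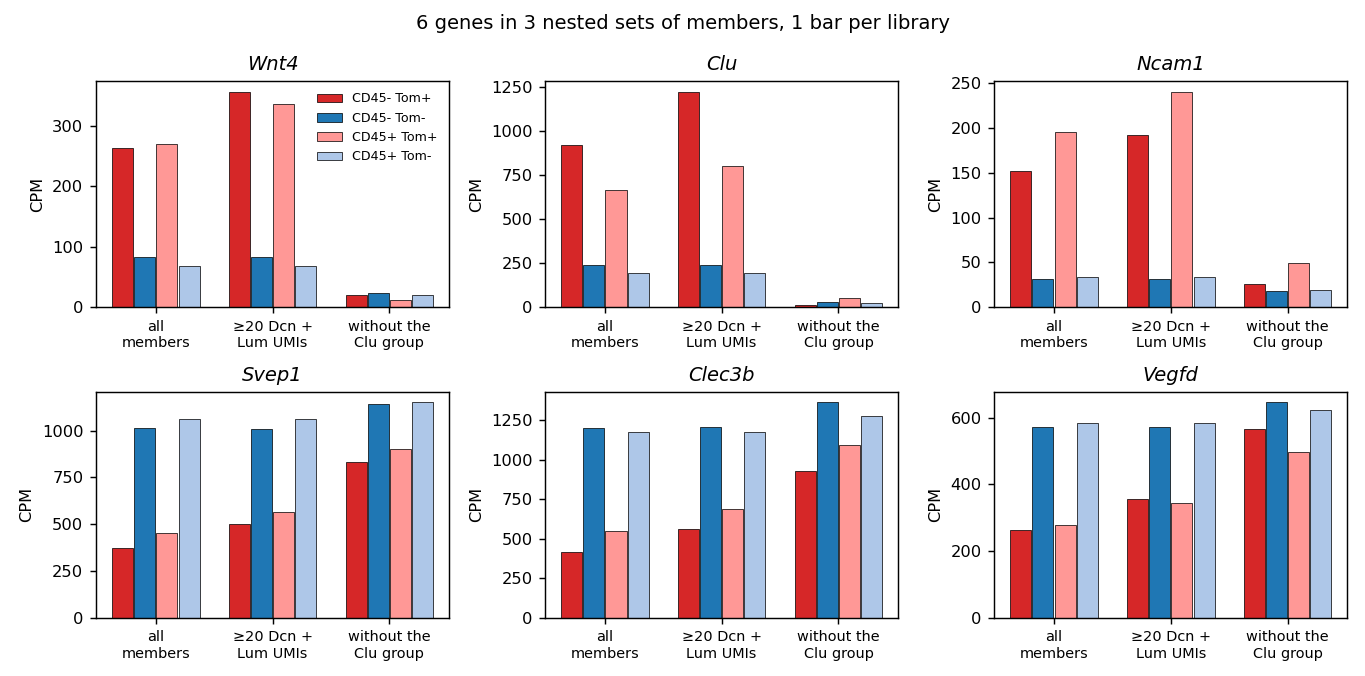
CPM (vertical axes) of Wnt4, Clu, Ncam1, Svep1, Clec3b and Vegfd in each of the 4 libraries, for all members, the Dcn/Lum members and the Dcn/Lum members without the Clu group. Each bar is 1 library and the axes start at 0. Among the Dcn/Lum members Wnt4 stands at 357 and 337 CPM in the Tom+ libraries and at 83.0 and 68.0 CPM in the Tom- libraries. Without the Clu group, of which Wnt4 is a leading gene, Wnt4 is not higher in Tom+, by construction. Its log2 ratios are then −0.19 in the CD45- pair and −0.75 in the CD45+ pair.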

How the data were processed

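The authors deposited UMI count matrices of 4 droplet libraries (10x Genomics; Cell Ranger 3.0.2 and mm10 per the submitters' processing notes), as raw counts of genes and tdTomato per barcode with no normalization. Counts of the members of a library were summed and given as CPM, with exact 95% intervals from scipy 1.17.1. Tom+ was set against Tom- within each CD45 label, over genes whose mean in the pair reached 50 CPM, and a gene was called past 1.5-fold. Since each group was 1 library, no p-value was computed. The 0 of a gene was set to 3 UMIs when genes were ranked. Members were clustered with scanpy 1.11.5 (2000 variable genes, 20 components, resolution 0.5), doublets were marked with Scrublet and left in, and edgeR 4.0.16 supplied TMM factors for an alternative. The ratio script was tested on simulated data.

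Named genes were the genes of the rule, Pdgfra, Dcn, Lum, tdTomato and Cdkn2a, the 15 highest and 15 lowest genes of the least extreme library against the other progenitors, and the 12 highest and 12 lowest of the less extreme pair for Tom+ against Tom-. Immunoglobulin, ribosomal, mitochondrial, predicted and marker genes were left out of that ranking. Further genes were named from the lists and groups after their values were seen. The members, the 20 programme lists and the 14 other cell type lists were chosen with earlier results of these data known. Gene positions are from GENCODE vM21 (GRCm38).

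The remaining lists gave these median log2 ratios of Tom+ to Tom- over the Dcn/Lum members in the CD45- and CD45+ pair: interstitial progenitor −0.45 and −0.32, preadipocyte −0.29 and −0.42, adipogenesis-regulatory −0.26 and −0.56, inflammatory 0.11 and 0.04, collagens −0.36 and −0.01, matrix remodelling −0.25 and −0.12, growth factors −0.36 and −0.39, Wnt and BMP −0.23 and 0.04, retinoid and lipid −0.14 and −0.38, immediate early genes −0.06 and −0.04, mitochondrially encoded −0.11 and −0.06, MHC class I −0.03 and −0.03, and unfolded protein response −0.03 and −0.01. Of the other cell types, the endothelial list summed to 5.55 to 49.3 CPM over the members by library, lymphatic endothelial 4.82 to 20.5, mast cell 9.04 to 39.7, neutrophil 2.41 to 13.6, pericyte and smooth muscle 31.3 to 82.7, dendritic cell 0.410 to 1.65, Schwann 1.64 to 4.21, adipocyte 0.387 to 9.84 and erythroid 0.127 to 1.64.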

Additional observations from a re-analysis of the deposited data

Results flagged for a closer look

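Aspn (asporin), a gene of the Col1a1 group, was lower in Tom+ than in Tom- over all members of the CD45- pair (log2 ratio −0.85) and higher in the CD45+ pair (0.69), so the 2 pairs moved in opposite directions past 1.5-fold. The difference was not tested, since each pair is 1 library against 1. Its levels were 60.6 and 109 CPM in the CD45- pair and 141 and 87.8 CPM in the CD45+ pair.

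Cdkn2a within the Clu group was higher in Tom+ in the CD45- pair (log2 ratio 0.60) and lower in the CD45+ pair (−1.18). The difference was not tested. In CD45+ Tom-, at 57.4 CPM, 1 cell held 26 of 37 UMIs, and in CD45+ Tom+, at 25.4 CPM, 1 cell held 6 of 13. Without the top cell of each library the levels were 14.7 CPM in CD45+ Tom+ and 18.6 CPM in CD45+ Tom-. In the CD45- pair they were then 21.9 CPM in Tom+ and 15.5 CPM in Tom-.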

How the results depend on the processing

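Each group was 1 library, so no value has a replicate error, and levels near 1 UMI are not resolved at these depths. No paired analysis was possible because each group held 1 library and no result came from a test. The alternatives on Dcn and Lum, the Clu group and shared barcodes were chosen after seeing the data. Apart from the alternatives named here, the cause of a shift was not tested.

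The share of members became 1.92%, 8.13%, 2.68% and 6.75% with a limit of 500 genes and 20% mitochondrial transcripts, and 1.28%, 2.82%, 1.46% and 2.45% when members had to hold 0 UMIs of the 7 programme genes. It was 3.50% in CD45- Tom+ with 1 Pdgfra UMI as the limit, 4.69% in CD45+ Tom+ and 10.2% in CD45+ Tom- over barcodes of at least 10000 UMIs, and 13.2% in CD45- Tom- and 10.4% in CD45+ Tom- over barcodes found in no other library.

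The genes past 1.5-fold in the CD45- pair became 112 higher and 215 lower with the mean of per-cell CPM, 277 lower after thinning, and 209 lower over barcodes found in no other library. A limit of 20 CPM gave 467 and 816 (CD45- pair) and 548 and 636 (CD45+ pair), and 1 UMI in both libraries gave 2962 and 2492, and 3134 and 2103, since more genes were tested. With 0 UMIs of the programme genes, which left fewer cells, they were 322 and 762, and 489 and 728. With 20 Dcn and Lum UMIs they were 95 and 148 in the CD45- pair and 148 lower in the CD45+ pair, and without the Clu group 35 and 58, and 61 and 65. TMM factors, leaving out doublets, the looser quality limits and leaving out the 2% of members richest in a gene kept all 4 counts within 1.5 times. The lists with a median past 1.5-fold lower, 9 in the CD45- pair and 6 in the CD45+ pair, became 2 and 2 with per-cell CPM, 3 and 2 after thinning, 14 and 15 with 0 programme UMIs, 1 and 0 with 20 Dcn and Lum UMIs, 0 and 1 without the Clu group, and 2 and 3 over barcodes found in no other library.

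Without the 1 cell of each library richest in a gene, added after seeing the data, 38 of 53 and 56 of 56 genes stayed past the line in both pairs among the Dcn/Lum members.

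The Tom+ to Tom- log2 ratio of Cdkn2a turned to −0.26 and −0.30 after thinning, to −0.065 in the CD45- pair with 0 programme UMIs and to −0.016 in the CD45+ pair with the looser quality limits, and that of Igfbp5 to −1.97 in the CD45+ pair with 0 programme UMIs. Without the Clu group, by the construction of that set, Clu turned to −1.24 and Wnt4 to −0.19 in the CD45- pair, and Wnt4 to −0.75, Aldh1a2 to −2.86, Nov to −0.43, Serpinb6b to −0.018 and the interstitial list to 0.045 in the CD45+ pair. Against the other progenitors, which kept all their cells, members without the cells of low Dcn and Lum and without the Clu group were also read. The lowest library's ratio then turned to −3.67 for Clu, −3.27 for Saa3 and −0.84 for Enpp2. With 0 programme UMIs that of Saa3 turned to −0.27. Of the Tom+ to Tom- ratios of named genes under alternatives, 769 stayed within the counting interval of the reported ratio and 496 moved beyond it. The 11 named above were those past 1.5-fold that changed sign.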
